A study of Mus musculus with 4 samples.

Results

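The genes described here are Spp1, Igf1, Gpnmb, Clec7a, Cst7, Lgals1, Lgals3, Fabp5, Cd9 and Vim, 10 of the 20308 genes in the deposited tables. They were chosen by gene name, as genes known from microglia of developing axon tracts and of proliferative regions. RNA of microglia, the resident macrophages of the brain, isolated from mice at postnatal day 11, was sequenced in 4 libraries. There were 2 libraries labelled Pd1cKO-Cx3 (replicates 2 and 3), a conditional knockout of Pdcd1, which encodes the inhibitory receptor PD-1, and 2 labelled Pd1fl/fl (replicates 1 and 2), in which that gene carries recombination sites. Both groups thus carry the floxed allele. What drives the recombinase behind Cx3, and whether controls have it too, is left unsaid in the labels. Nor is it stated whether animals were pooled or each library had its own animal. The p-values therefore reflect the spread among these samples alone, which may be technical in part. The Pd1fl/fl libraries differ in sex-linked transcripts, as given below, so their spread is not technical alone.

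Axon-tract microglia are amoeboid cells that gather in young white matter shortly after birth, and proliferative-region microglia are their counterpart around zones where glia are being formed. Both are known for engulfing cells or debris and for a shared set of transcripts, many of which mature, resting microglia make at low levels. Much of that set appears again in microglia around plaques or damaged myelin. It spans secreted factors (Spp1, Igf1), a membrane glycoprotein and a surface receptor (Gpnmb, Clec7a), a protease inhibitor (Cst7), sugar-binding galectins (Lgals1, Lgals3), a lipid carrier (Fabp5), a tetraspanin (Cd9) and a filament protein (Vim).

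Total counts were 14258420 to 15486984 in both libraries labelled Pd1cKO-Cx3 and 14854625 to 15908954 in Pd1fl/fl. The targeted gene, Pdcd1, was counted 179 and 154 times in both libraries labelled Pd1cKO-Cx3, against 0 and 43 counts in Pd1fl/fl replicates 1 and 2. This goes against the labels in whole-gene counts, which cannot set deleted parts apart, and every direction below follows the labels. Csf1r, a receptor gene of microglia and other macrophages, had 16885 and 15552 CPM (counts scaled to the library's total) in both libraries labelled Pd1cKO-Cx3, against 17175 and 16920 CPM in Pd1fl/fl. The microglial gene Tmem119 had 8342 and 8016 CPM under the Pd1cKO-Cx3 label, against 8423 and 8230 CPM under Pd1fl/fl. Both genes were thus abundant in every library. Xist was counted only in Pd1fl/fl replicate 1, and Ddx3y, a Y-linked gene, only in the other 3 libraries. By these genes Pd1fl/fl replicate 1 reads as female and the other 3 libraries as male. Sex is thus uneven between the labels and differs between the controls, and its part in the values below was not tested. The mitochondrial share of counts was 1.48% and 1.601% in both libraries labelled Pd1cKO-Cx3, against 1.23% and 1.02% in Pd1fl/fl.

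Promoters of 8 of the 10 genes were matched by symbol in RefSeq (GRCm38.p6), each from 250 bases before to 50 bases after a transcript start. Spp1 and Clec7a had 2 promoters each, which makes 10 in all. For the 4 genes with an unadjusted p under 0.05 in the genotype comparison 1 promoter each is shown, 5′ to 3′ on the gene's own strand, since the values below turn on these genes. Capitals mark matches on either strand to the AP-1 letters TGANTCA, the E-box CACGTG, the M-box core CATGTG, the PU.1 core GAGGAA or the TATA letters TATAAA. No marked stretch overlaps another, and the other promoter of Spp1 held 0 matches.
Spp1 (chr5:104434861-104435160, plus strand): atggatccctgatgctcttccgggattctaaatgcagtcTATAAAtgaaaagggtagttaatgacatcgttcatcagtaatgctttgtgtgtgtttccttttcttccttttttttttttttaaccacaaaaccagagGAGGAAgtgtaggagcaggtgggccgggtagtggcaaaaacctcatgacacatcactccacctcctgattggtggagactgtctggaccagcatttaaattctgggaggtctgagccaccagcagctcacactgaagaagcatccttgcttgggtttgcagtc
Igf1 (chr10:87860861-87861160, plus strand): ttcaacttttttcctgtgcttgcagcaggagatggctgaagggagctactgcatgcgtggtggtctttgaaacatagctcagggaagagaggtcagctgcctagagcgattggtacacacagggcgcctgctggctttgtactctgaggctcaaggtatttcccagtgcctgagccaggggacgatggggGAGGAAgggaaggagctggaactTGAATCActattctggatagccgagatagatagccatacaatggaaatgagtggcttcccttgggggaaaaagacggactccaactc
Gpnmb (chr6:49036268-49036567, plus strand): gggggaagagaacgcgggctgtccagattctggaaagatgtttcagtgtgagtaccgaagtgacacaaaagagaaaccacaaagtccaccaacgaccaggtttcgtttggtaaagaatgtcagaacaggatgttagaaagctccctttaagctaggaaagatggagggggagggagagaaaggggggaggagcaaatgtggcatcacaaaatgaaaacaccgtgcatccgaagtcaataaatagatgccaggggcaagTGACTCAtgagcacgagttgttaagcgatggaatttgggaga
Cd9 (chr6:125494711-125495010, minus strand): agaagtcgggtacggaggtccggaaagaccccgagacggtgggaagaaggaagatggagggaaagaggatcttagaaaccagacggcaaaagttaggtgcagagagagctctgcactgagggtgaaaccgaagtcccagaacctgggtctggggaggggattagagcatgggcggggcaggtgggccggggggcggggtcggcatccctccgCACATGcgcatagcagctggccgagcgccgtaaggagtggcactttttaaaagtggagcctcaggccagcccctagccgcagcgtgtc
The AP-1 letters stood in 3 of the 10 promoters, those of Igf1, Gpnmb and Cst7, and in 7.81% of all 32851 RefSeq promoters of this length. The PU.1 core stood in 5 of the 10 (Spp1, Igf1, Vim and both of Clec7a, which overlap), against 28.3% of all promoters. The TATA letters were found in 3 (Spp1, Clec7a and Vim), against 13.6%, and the M-box core in 1, that of Cd9, against 14.2%. The E-box was found in 0 of the 10, against 7.15% of all promoters. Such matches describe letters in these windows and are not measured sites.

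In the genotype comparison the 10 genes as a set had mostly higher values in both libraries labelled Pd1cKO-Cx3, but none passed the test. With edgeR's quasi-likelihood test and Benjamini-Hochberg adjustment over all 15097 genes tested, 0 of the 10 passed (adjusted p from 0.512 to 0.954), against 0.0397% of all genes tested in either direction and 0.0199% higher. DESeq2 on the same genes also called 0 of the 10, against 1.54% of all genes in either direction and 1.18% higher. An unadjusted p under 0.05 was reached by 4 of the 10, all higher (Spp1, Igf1, Gpnmb and Cd9), against 4.97% of all genes in that direction and 8.09% in either. For 7 of the 10, both libraries labelled Pd1cKO-Cx3 lay above both Pd1fl/fl libraries in CPM, against 21.3% of all genes tested, and 0 of the 10 lay below, against 18.8% (40.1% in either direction). A positive fold change was found for 9 of the 10, against 50.7% of all genes. The 3 with overlapping groups were Lgals3, Fabp5 and Vim. Gpnmb passed the filter on low counts only through both libraries labelled Pd1cKO-Cx3, so these counts describe the set and are no support for it. Without Gpnmb, 3 of 9 genes had an unadjusted p under 0.05, 6 of 9 had groups apart and 8 of 9 had a positive fold change. The median log2 fold change was 0.69 over the 10 genes, 0.61 without Gpnmb and 0.01 over all genes tested. Since the genes are known to be transcribed together, they are not independent readings. In bulk RNA, a larger share of such cells and more RNA per cell cannot be told apart.

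**Figure D1:**
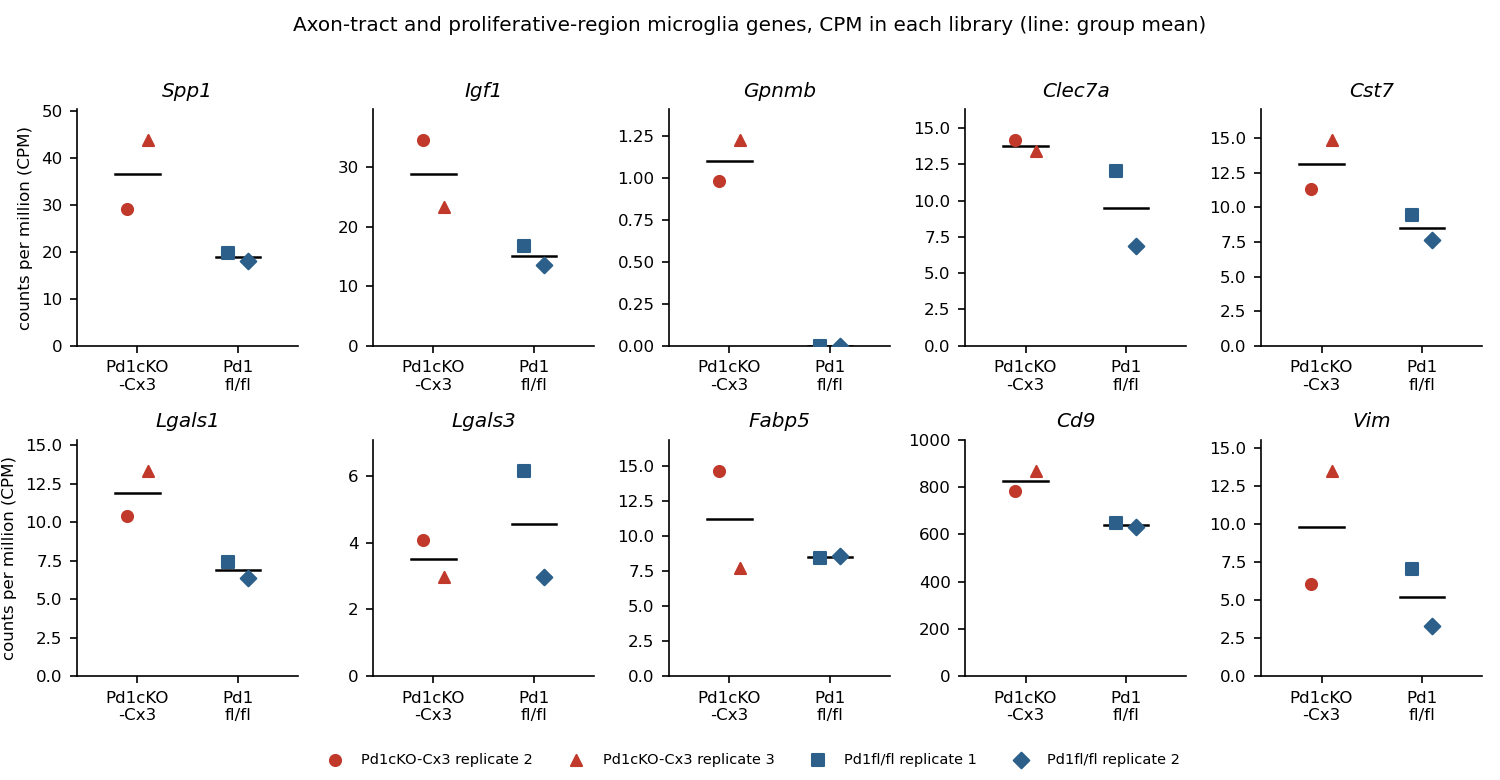
CPM of each gene in each library, on linear axes from 0, with both libraries labelled Pd1cKO-Cx3 on the left (red), Pd1fl/fl on the right (blue) and a line at each group mean. The groups are apart for 7 genes and overlap for Lgals3, Fabp5 and Vim, and Gpnmb is at 0 in both Pd1fl/fl libraries.

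Spp1 encodes osteopontin, a secreted phosphoprotein that binds integrins and CD44 (ENSMUSG00000029304, chromosome 5, 104435118 to 104441050, GRCm38). It had 29.2 and 43.7 CPM in both libraries labelled Pd1cKO-Cx3, replicates 2 and 3 in that order, against 19.7 and 18.0 CPM in Pd1fl/fl replicates 1 and 2. The groups did not overlap, and the lowest library labelled Pd1cKO-Cx3 was 1.48 times the highest control. The mean was 36.4 ± 10.3 CPM over both libraries labelled Pd1cKO-Cx3 and 18.9 ± 1.155 CPM in Pd1fl/fl (SD, n = 2 each). Most of the spread lay within the Pd1cKO-Cx3 label, where replicate 3 was 1.498 times replicate 2. The log2 fold change was 0.94 ± 0.29 (SE; 95% interval 0.22 to 1.66; edgeR adjusted p = 0.542). Leaving out replicate 3 of the Pd1cKO-Cx3 label gave 0.63, and leaving out replicate 2 gave 1.21.

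Igf1 encodes insulin-like growth factor 1, a secreted factor that supports neurons and myelin-forming cells (ENSMUSG00000020053, chromosome 10, 87858265 to 87937042). Its level was 34.5 and 23.3 CPM in both libraries labelled Pd1cKO-Cx3, against 16.7 and 13.5 CPM in Pd1fl/fl. Again the groups were apart, but here replicate 2 was the higher of the pair labelled Pd1cKO-Cx3, the opposite order to Spp1. Means were 28.9 ± 7.92 CPM over both libraries labelled Pd1cKO-Cx3 and 15.1 ± 2.25 CPM in Pd1fl/fl (SD, n = 2 each), with a log2 fold change of 0.92 ± 0.31 (SE; 95% interval 0.15 to 1.70; edgeR adjusted p = 0.542). Igf1os, an antisense gene that overlaps Igf1, had 0 and 2 counts in both libraries labelled Pd1cKO-Cx3 and 27 and 0 in Pd1fl/fl, and the sources used here do not state whether counting used strand. These are small beside the 201 to 492 counts of Igf1.

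Gpnmb encodes a transmembrane glycoprotein of lysosomes and the cell surface that lipid-laden macrophages make (ENSMUSG00000029816, chromosome 6, 49036546 to 49070929). It was counted 14 and 19 times in both libraries labelled Pd1cKO-Cx3, against 0 and 0 times in Pd1fl/fl. That is 0.982 and 1.23 CPM in both libraries labelled Pd1cKO-Cx3, with exact 95% Poisson intervals of 0.537 to 1.65 and 0.739 to 1.92 CPM. In Pd1fl/fl replicates 1 and 2 a count of 0 allows up to 0.189 and 0.202 CPM, taken as 3 counts per library. Such intervals and limits cover counting error only. The observed mean level under the Pd1cKO-Cx3 label was 5.66 times the mean of those limits, with 5.03 times from replicate 2 alone and 6.28 times from replicate 3 alone. These ratios leave out the counting error of the libraries labelled Pd1cKO-Cx3, so they are not strict lower bounds. Its edgeR adjusted p was 0.542, and the fitted fold change is set by the prior count.

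Clec7a encodes Dectin-1, a receptor for fungal beta-glucans (chromosome 6, 129461591 to 129472779), and stood in the deposited tables under the biotype polymorphic pseudogene. It had 14.2 and 13.4 CPM in both libraries labelled Pd1cKO-Cx3, against 12.1 and 6.87 CPM in Pd1fl/fl. The groups were apart by little, the lowest library labelled Pd1cKO-Cx3 being 1.11 times the highest control, and the controls differed 1.76-fold between themselves. The log2 fold change of 0.53 ± 0.40 (SE; 95% interval -0.45 to 1.52) had an edgeR adjusted p of 0.819. Without Pd1fl/fl replicate 2 it was 0.19, and without Pd1fl/fl replicate 1 it was 0.99.

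Cst7 encodes cystatin F, an inhibitor of cysteine proteases such as cathepsin C (chromosome 2, 150570415 to 150578944). Its values were 11.4 and 14.9 CPM in both libraries labelled Pd1cKO-Cx3 and 9.43 and 7.61 CPM in Pd1fl/fl. Means were 13.1 ± 2.47 CPM over both libraries labelled Pd1cKO-Cx3 and 8.52 ± 1.29 CPM in Pd1fl/fl (SD, n = 2 each), with a log2 fold change of 0.61 ± 0.36 (SE; 95% interval -0.29 to 1.51; edgeR adjusted p = 0.757). The groups did not overlap, by a margin of 1.21-fold, which is less than the 1.31-fold gap between the libraries labelled Pd1cKO-Cx3.

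Galectins bind beta-galactoside sugars, and the signs of the fold changes of Lgals1 and Lgals3 were opposite, with neither past the test. Lgals1, encoding galectin-1 (chromosome 15, 78926725 to 78930465), had 10.4 and 13.4 CPM in both libraries labelled Pd1cKO-Cx3, against 7.42 and 6.40 CPM in Pd1fl/fl. Its groups were apart, and its log2 fold change was 0.77 ± 0.38 (SE; 95% interval -0.17 to 1.72; edgeR adjusted p = 0.690). Lgals3, encoding galectin-3, which binds damaged lysosomes and is also secreted (chromosome 14, 47367751 to 47386160), had 4.07 and 2.97 CPM in both libraries labelled Pd1cKO-Cx3, against 6.16 and 2.96 CPM in Pd1fl/fl. Here the groups overlapped, and Pd1fl/fl replicate 1 stood above the other 3 libraries, with an exact 95% Poisson interval of 5.001 to 7.51 CPM against 2.15 to 3.98 CPM in Pd1fl/fl replicate 2. Its log2 fold change was -0.38 ± 0.67 (SE; edgeR adjusted p = 0.954) and turned to 0.24 without Pd1fl/fl replicate 1.

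Fabp5 encodes a fatty acid-binding protein that carries lipids inside the cell (chromosome 3, 10012548 to 10016607). It had 14.7 and 7.68 CPM in both libraries labelled Pd1cKO-Cx3, against 8.42 and 8.55 CPM in Pd1fl/fl. The controls were nearly equal, and the library labelled Pd1cKO-Cx3 replicate 2 alone stood high, 1.91 times replicate 3. The log2 fold change was 0.39 ± 0.45 (SE; edgeR adjusted p = 0.910) and turned to -0.15 without that library. Gm6166, a processed pseudogene that the deposited tables give the same protein entry, had at most 3 counts in any library.

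Cd9 encodes a tetraspanin, a membrane protein that organises surface complexes and vesicles (ENSMUSG00000030342, chromosome 6, 125460266 to 125494791), and was by far the most abundant of the 10. It had 785 and 871 CPM in both libraries labelled Pd1cKO-Cx3, replicates 2 and 3 in that order, against 648 and 632 CPM in Pd1fl/fl replicates 1 and 2. The groups were apart, with means of 828 ± 60.8 CPM over both libraries labelled Pd1cKO-Cx3 and 640 ± 11.5 CPM in Pd1fl/fl (SD, n = 2 each). Its difference was the smallest among the 7 genes with groups apart and the most precise, with a log2 fold change of 0.36 ± 0.09 (SE; 95% interval 0.13 to 0.60; edgeR adjusted p = 0.512). DESeq2 gave it an adjusted p of 0.0526, the lowest of the 10 genes in either tool. It ranged from 0.29 to 0.44 in the 4 fits without a library. Gm28809 and Gm26728, which overlap Cd9 on the other strand, had 0 to 18 counts per library beside the 9389 to 13486 of Cd9.

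Vim encodes vimentin, an intermediate filament protein of motile and mesenchymal cells (chromosome 2, 13573927 to 13582826). It had 6.03 and 13.5 CPM in both libraries labelled Pd1cKO-Cx3, against 7.04 and 3.30 CPM in Pd1fl/fl. Replicates differed 2.24-fold in both libraries labelled Pd1cKO-Cx3 and 2.13-fold in Pd1fl/fl, more than in any other of the 9 genes counted in every library, so the groups overlapped. The log2 fold change of 0.91 ± 0.62 (SE; 95% interval -0.63 to 2.44) was close in size to those of Spp1 and Igf1, with an SE about 2 times as large (edgeR adjusted p = 0.793). Leaving out replicate 3 of the Pd1cKO-Cx3 label gave 0.22, the lowest of the 4 such fits, and leaving out Pd1fl/fl replicate 1 gave 1.55, the highest.

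**Figure D2:**
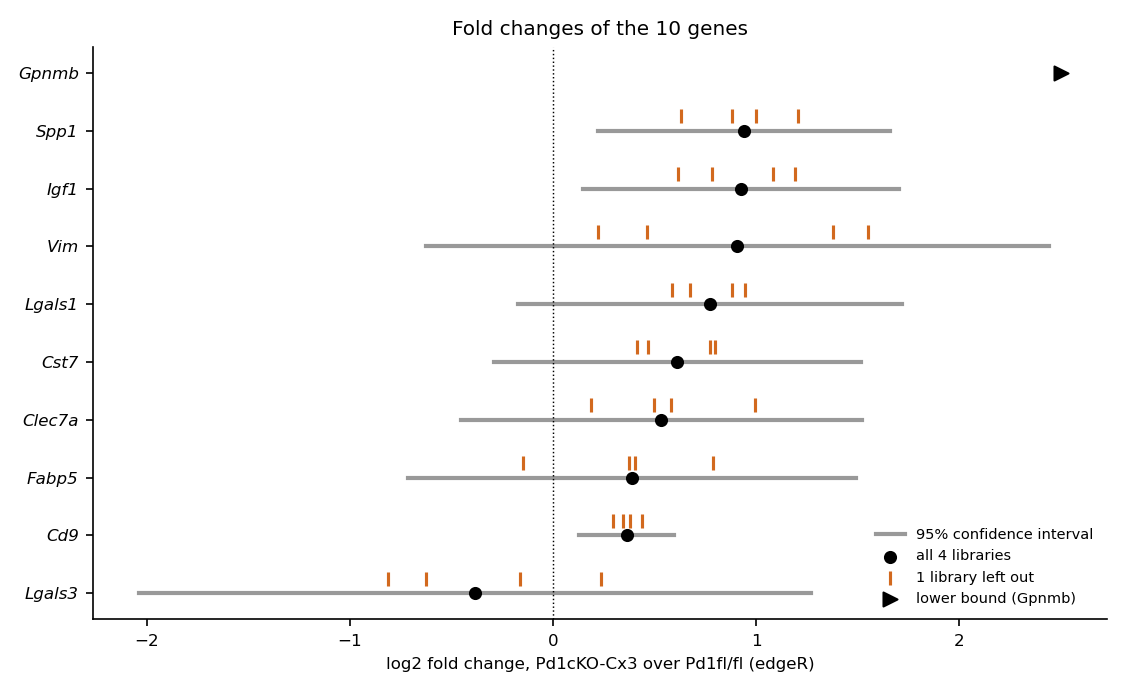
Log2 fold changes of the 10 genes, with both libraries labelled Pd1cKO-Cx3 over Pd1fl/fl, as points with 95% intervals from edgeR, orange ticks for fits without 1 library and an arrowhead for Gpnmb. The arrowhead, named a lower bound in the key, is its ratio to the limits of the controls. It leaves out the counting error of the libraries labelled Pd1cKO-Cx3. The intervals of Spp1, Igf1 and Cd9 lie above 0, before any adjustment for the number of genes tested, and only Fabp5 and Lgals3 have ticks on both sides of 0.

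**Figure D3:**
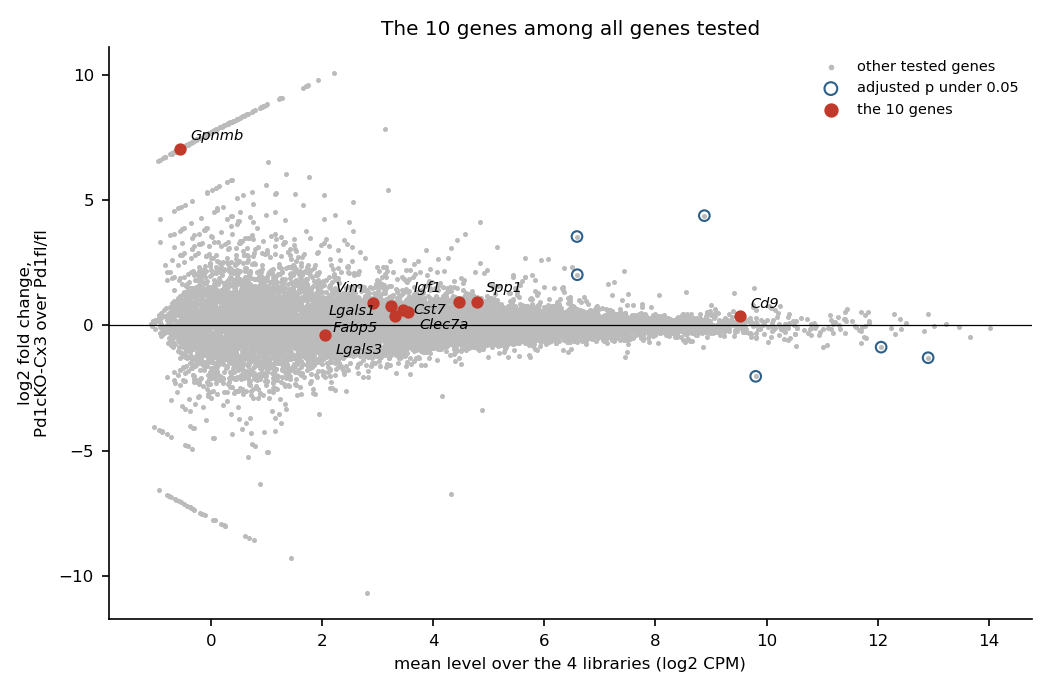
Mean level (log2 CPM) and log2 fold change, with both libraries labelled Pd1cKO-Cx3 over Pd1fl/fl, of all 15097 genes tested in grey, the 6 past the threshold circled and the 10 genes in red. Except Cd9 and Gpnmb, they lie at low to moderate levels inside the cloud of other genes, and the height of Gpnmb is set by the prior count of the fit.

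Compared per length, as CPM per kilobase of annotated exon, the 10 genes spanned a wide range of levels. Cd9 stood highest, at 405 ± 29.7 CPM per kilobase over both libraries labelled Pd1cKO-Cx3 and 313 ± 5.65 in Pd1fl/fl (SD, n = 2 each), above 99.4% of the genes tested with a known length. Next were Spp1, at 22.1 ± 6.24 over both libraries labelled Pd1cKO-Cx3 and 11.4 ± 0.701 in Pd1fl/fl, then Cst7 and Lgals1. Below them came Clec7a, Fabp5, Igf1, Lgals3 and Vim, whose means over the 4 libraries were 4.41, 2.76, 2.22, 2.17 and 1.57 CPM per kilobase. Gpnmb was last, at 0.170 ± 0.0266 over both libraries labelled Pd1cKO-Cx3 and 0 in Pd1fl/fl. Ranges over the 4 libraries were apart only between Cd9 and Spp1, between Lgals1 and Clec7a, and between Vim and Gpnmb. All other neighbours in this order overlapped, although Spp1 stood above Cst7, Cst7 above Lgals1 and Clec7a above Fabp5 in each of the 4 libraries. By group means, Lgals3 was ninth of the 10 under the Pd1cKO-Cx3 label and sixth in Pd1fl/fl. The exon lengths cover every annotated transcript, so genes with long rare exons, such as Igf1 with 9904 bases, are understated.

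The genes also varied in which library of a pair was high. In both libraries labelled Pd1cKO-Cx3, replicate 3 lay above replicate 2 for 6 genes (Spp1, Gpnmb, Cst7, Lgals1, Cd9 and Vim), and replicate 2 was the higher for Igf1, Clec7a, Lgals3 and Fabp5. In Pd1fl/fl, replicate 1 lay above replicate 2 for 8 genes, Fabp5 and Gpnmb being the exceptions. Over the 4 libraries, the Euclidean distance of log2 CPM centred on each gene's mean placed Lgals1 (0.24) and Cst7 (0.37) closest to Spp1 among the 10 and Lgals3 farthest (1.48). Other genes were ranked where they had at least 20 CPM on average, with predicted and provisionally named genes left out. Of these, Dna2, Trim30a and Herc6 were closest to Spp1, at distances of 0.12, 0.14 and 0.15. Glrx, mt-Rnr1 and Cldn5 were closest to Igf1, at 0.19, 0.23 and 0.24. All of these distances rest on 4 libraries and are a description.

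The authors' deposited tables compare the libraries in pairs, with p-values for those 2 libraries and not for the conditions. Their mark (p under 0.05 and a change beyond 2-fold, with 0 exceptions in each table) was given to 7 of the 10 genes in at least 1 of the 4 tables. Gpnmb alone was marked in all 4 of the authors' deposited tables. The matching shares of all genes, for marks in at least 1 table and in all 4, were not computed. These counts therefore cannot be read as a result about the 10 genes. In the authors' deposited tables Igf1 was marked higher only with the library labelled Pd1cKO-Cx3 replicate 2, and Spp1 only with replicate 3, against both controls each time. Against Pd1fl/fl replicate 1 the authors' deposited tables marked 2 genes higher for either library labelled Pd1cKO-Cx3, while 18.9% and 18.3% of all genes listed were so marked with replicates 2 and 3. Against Pd1fl/fl replicate 2 they marked 3 and 4 genes higher with replicates 2 and 3, where 17.2% and 16.6% of all genes were, in the authors' deposited tables. Lgals3 was marked lower once, in the authors' deposited table of replicate 3 against Pd1fl/fl replicate 1, where 14.9% of all genes were. These tables share libraries and are not separate readings.

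Partners and relatives of the 10 genes were then examined in 11 lists. Of 96 tested genes in these lists, 0 passed edgeR over all genes, while an unadjusted p under 0.05 was reached by 22 higher and 3 lower genes, and DESeq2 called 8, beside 8.09% and 1.54% of all genes tested. With groups apart, 47 lay higher and 13 lower, beside 21.3% and 18.8% of all genes, shares that also stand behind each list's counts. The median log2 fold change over the 96 was 0.27, beside 0.01 over all genes. The list of osteopontin receptors, integrin chains and CD44, had 3 of 8 genes higher and 2 lower with groups apart, and a median log2 fold change of 0.16. Itga9 had 77.6 ± 1.79 CPM over both libraries labelled Pd1cKO-Cx3 and 95.7 ± 5.33 CPM in Pd1fl/fl, and Itga4 had 5.96 ± 2.68 CPM over both libraries labelled Pd1cKO-Cx3 and 2.55 ± 1.99 CPM in Pd1fl/fl (SD, n = 2 each; edgeR adjusted p = 0.680 and 0.787). The IGF system had 4 of 10 tested genes higher and 0 lower with groups apart, and a median of 0.55. Among the 4, Igfbp3 and Igfbp7 passed the filter on low counts only through both libraries labelled Pd1cKO-Cx3. They could thus only lie higher, in this list and in the counts and median over the 96. Igfbp2, which encodes a carrier protein of IGFs, had 17.0 and 22.1 CPM in both libraries labelled Pd1cKO-Cx3, against 6.29 and 3.77 CPM in Pd1fl/fl, at 1.95 ± 0.41 on the log2 fold scale (SE; edgeR adjusted p = 0.433). Igfbp7, which endothelial cells are known to make, had 2.10 and 2.84 CPM in both libraries labelled Pd1cKO-Cx3, against 0.189 and 0.269 CPM in Pd1fl/fl (edgeR adjusted p = 0.542). Igf1r, the receptor of IGF-1, had 38.1 ± 2.43 CPM over both libraries labelled Pd1cKO-Cx3 and 42.1 ± 8.67 CPM in Pd1fl/fl, and the groups overlapped.

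Downstream of Dectin-1, 2 of 7 genes lay higher and 2 lower with groups apart, and the median was 0.03. Plcg2 and Prkcd, a phospholipase and a protein kinase gene, had log2 fold changes of 0.30 ± 0.13 and 0.22 ± 0.12 (SE; edgeR adjusted p = 0.649 and 0.733). Syk, the kinase next to the receptor, had 139 ± 5.98 CPM over both libraries labelled Pd1cKO-Cx3 and 160 ± 0.866 CPM in Pd1fl/fl. Among MiT/TFE transcription factors and lysosomal genes they control, 2 of 5 lay higher and 1 lower with groups apart, with a median of -0.11. Tfec had 9.61 and 6.52 CPM in both libraries labelled Pd1cKO-Cx3, against 16.8 and 12.3 CPM in Pd1fl/fl (edgeR adjusted p = 0.659), and Ctsk 3.998 and 1.42 CPM under the Pd1cKO-Cx3 label, against 0.440 and 1.35 CPM under Pd1fl/fl (edgeR adjusted p = 0.804).

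Of 4 tested genes in the list of other galectins and a galectin ligand, 2 lay higher and 0 lower with groups apart, at a median of 0.25. Lgals9, encoding galectin-9, had 635 and 689 CPM in both libraries labelled Pd1cKO-Cx3, against 423 and 411 CPM in Pd1fl/fl, with a log2 fold of 0.66 ± 0.10 (SE; edgeR adjusted p = 0.213). Lgals3bp, which encodes a secreted ligand of galectin-3 and is known to respond to interferon, had 117 and 126 CPM in both libraries labelled Pd1cKO-Cx3, against 34.7 and 47.3 CPM in Pd1fl/fl, with a log2 fold of 1.56 ± 0.21 (SE; edgeR adjusted p = 0.167). Both sets of values lay well apart between the groups, unlike those of Lgals3 itself.

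Cystatins restrain cathepsins, the proteases of lysosomes. In the list of other cystatins and cathepsins 4 of 7 tested genes lay higher and 1 lower with groups apart, and the median was 0.27. Ctsc, the protease that cystatin F is known to inhibit, had 931 and 1278 CPM in both libraries labelled Pd1cKO-Cx3, against 623 and 629 CPM in Pd1fl/fl, at 0.81 ± 0.16 on the log2 fold scale (SE; edgeR adjusted p = 0.367). Ctss had 3000 and 3489 CPM in both libraries labelled Pd1cKO-Cx3, against 2162 and 2285 CPM in Pd1fl/fl (edgeR adjusted p = 0.308). Cst3, encoding cystatin C, lay the other way, at 3212 and 2719 CPM in both libraries labelled Pd1cKO-Cx3, against 4351 and 3920 CPM in Pd1fl/fl (log2 fold change -0.49 ± 0.10, SE; edgeR adjusted p = 0.419).

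The remaining families gave mixed values. Of 6 other fatty acid-binding protein genes listed, 2 were tested, with 0 higher and 1 lower with groups apart, at a median of 0.08. Both were low, with Fabp7 at 9.19 and 9.10 CPM in both libraries labelled Pd1cKO-Cx3, against 10.5 and 10.2 CPM in Pd1fl/fl. Fabp3 was below 2 CPM in every library. Of 9 other tetraspanin genes, 3 lay higher and 3 lower with groups apart, at a median of 0.04. Tspan4 had 46.4 and 41.5 CPM in both libraries labelled Pd1cKO-Cx3, against 79.8 and 75.1 CPM in Pd1fl/fl, and Cd151 had 17.7 and 19.8 CPM under the Pd1cKO-Cx3 label, against 12.8 and 10.4 CPM under Pd1fl/fl (edgeR adjusted p = 0.438 and 0.655). Of 6 tested intermediate filament and lamin genes, 4 lay higher and 1 lower with groups apart, at a median of 0.62. Lmna, a nuclear lamin gene, had 16.1 and 15.9 CPM in both libraries labelled Pd1cKO-Cx3, against 6.98 and 8.15 CPM in Pd1fl/fl. Gfap, the astrocyte filament gene, had 29.2 and 15.2 CPM in both libraries labelled Pd1cKO-Cx3, against 9.81 and 6.60 CPM in Pd1fl/fl (edgeR adjusted p = 0.542 for both).

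Other genes reported for the same microglial states lay higher with groups apart for 14 of 23 tested and lower for 1, at a median log2 fold change of 0.25. Axl, a receptor for dying cells, had 109 and 164 CPM in both libraries labelled Pd1cKO-Cx3, against 33.9 and 20.8 CPM in Pd1fl/fl, and Ctsb had 5804 and 6038 CPM under the Pd1cKO-Cx3 label, against 4832 and 4938 CPM under Pd1fl/fl (edgeR adjusted p = 0.190 and 0.369). Apoe and Itgax, classic genes of the same states, had log2 fold changes of 0.17 ± 0.10 and 0.38 ± 0.76 (SE). Cell cycle genes, which mark the dividing part of these states, lay higher with groups apart for 10 of 18 and lower for 1, at a median of 0.57. Birc5 had 99.6 and 114 CPM in both libraries labelled Pd1cKO-Cx3, against 66.3 and 68.7 CPM in Pd1fl/fl, and Ccna2 29.3 and 38.0 CPM under the Pd1cKO-Cx3 label, against 15.8 and 16.0 CPM under Pd1fl/fl (edgeR adjusted p = 0.464 and 0.482).

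**Figure D4:**
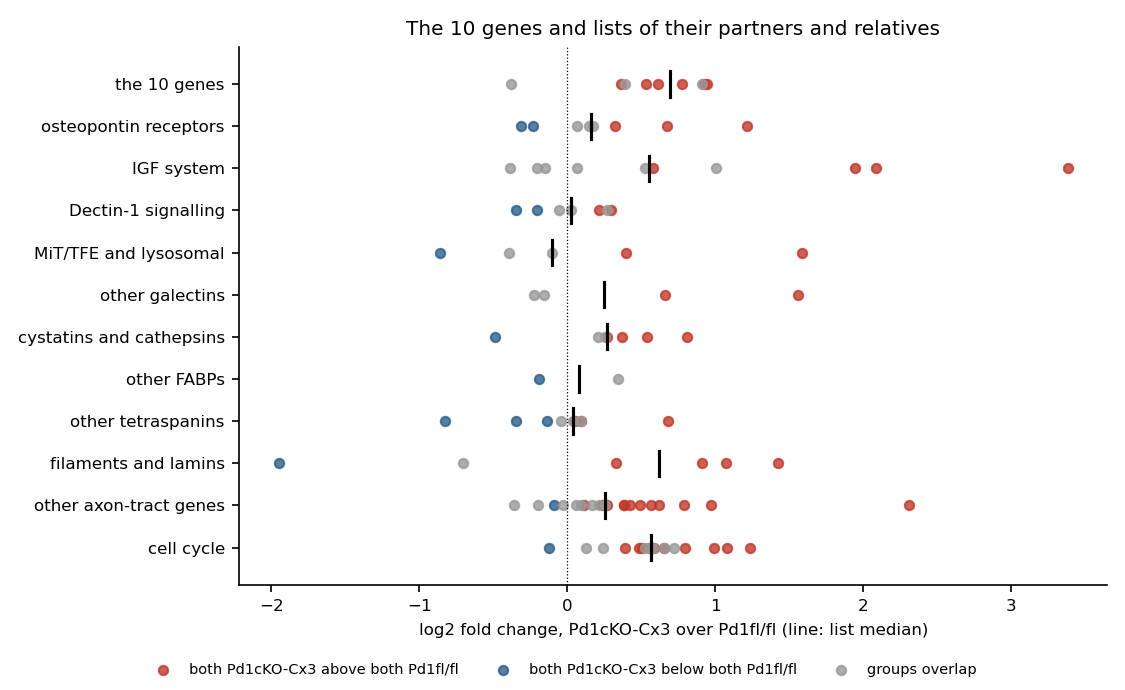
Log2 fold changes, with both libraries labelled Pd1cKO-Cx3 over Pd1fl/fl, of the tested genes in each list, coloured by whether the groups are apart in CPM, with a line at each list's median. Gpnmb is not drawn but counts in the median of the 10 genes (0.69, or 0.61 without it), beside 0.57 for the cell cycle and 0.25 for the other axon-tract genes.

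Several of the 10 genes are also made by other cells, so marker genes of those cells were read in the same libraries. Markers of border-associated macrophages, which can make Spp1, Clec7a, Lgals1, Lgals3 and Vim, summed to 672 and 643 CPM in both libraries labelled Pd1cKO-Cx3, against 434 and 518 CPM in Pd1fl/fl. Of these 8 markers 6 lay higher with groups apart, 0 lay lower and 0 were at 0 counts in any library. Their median log2 fold change was 1.28, beside 0.01 over all genes tested. Mrc1 had 404 and 379 CPM in both libraries labelled Pd1cKO-Cx3, against 310 and 429 CPM in Pd1fl/fl, and F13a1 had 75.2 and 54.7 CPM under the Pd1cKO-Cx3 label, against 26.02 and 25.04 CPM under Pd1fl/fl. Monocyte and neutrophil markers summed to 84.4 and 72.1 CPM in both libraries labelled Pd1cKO-Cx3, against 40.5 and 25.99 CPM in Pd1fl/fl, with Plac8 the most abundant on average (71.1 and 67.3 CPM under the Pd1cKO-Cx3 label, against 16.8 and 17.3 CPM under Pd1fl/fl). Of the 5 tested, 1 lay higher and 2 lower with groups apart, at a median log2 fold change of -0.94. Retnlg, one of the 2 lower, passed the filter on low counts only through both Pd1fl/fl libraries, so it could only lie lower. Without Plac8, left out after its values were seen, the list summed to 13.3 and 4.71 CPM in both libraries labelled Pd1cKO-Cx3, against 23.6 and 8.68 CPM in Pd1fl/fl. Of the 10 markers listed, 4 and 3 were at 0 in both libraries labelled Pd1cKO-Cx3 and 4 and 5 in Pd1fl/fl, and Ccr2 overlapped between the groups (11.2 and 1.61 CPM under the Pd1cKO-Cx3 label, against 19.5 and 4.85 CPM under Pd1fl/fl).

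Endothelial markers, of cells rich in Vim and Lgals1, summed to 137 and 110 CPM in both libraries labelled Pd1cKO-Cx3, against 98.9 and 66.7 CPM in Pd1fl/fl, with 5 of 8 higher and 0 lower with groups apart. One of them, Tie1, was at 0 in Pd1fl/fl replicate 1, and the list's median log2 fold change was 0.94. Tie1 passed the filter on low counts only through both libraries labelled Pd1cKO-Cx3, so it could only lie higher in this count and median. Cldn5 had 47.3 and 27.8 CPM in both libraries labelled Pd1cKO-Cx3, against 24.4 and 16.4 CPM in Pd1fl/fl, and Pecam1 25.5 and 32.3 CPM under the Pd1cKO-Cx3 label, against 40.5 and 31.4 CPM under Pd1fl/fl. Mural cell and fibroblast markers, of cells that make Igf1, Lgals1 and Vim, summed to 177 and 187 CPM in both libraries labelled Pd1cKO-Cx3, against 103 and 54.1 CPM in Pd1fl/fl. Of these 10 markers 5 lay higher and 1 lower with groups apart, and 0 and 1 were at 0 in both libraries labelled Pd1cKO-Cx3, against 2 and 1 in Pd1fl/fl. Their median log2 fold change was 1.52. Notch3, one of the 5 higher, passed that filter only through both libraries labelled Pd1cKO-Cx3, so it too could only lie higher. Rgs5 had 86.0 and 104.6 CPM in both libraries labelled Pd1cKO-Cx3, against 46.2 and 19.7 CPM in Pd1fl/fl, and Col1a1 32.8 and 20.99 CPM under the Pd1cKO-Cx3 label, against 10.9 and 7.67 CPM under Pd1fl/fl.

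Oligodendrocyte markers, of a lineage that makes Cd9, overlapped between the groups, at 1132 and 397 CPM in both libraries labelled Pd1cKO-Cx3, against 697 and 327 CPM in Pd1fl/fl, with 2 of 8 higher and 0 lower with groups apart. Mbp had 611 and 224 CPM in both libraries labelled Pd1cKO-Cx3, against 404 and 201 CPM in Pd1fl/fl. Astrocyte markers overlapped as well, at 571 and 354 CPM in both libraries labelled Pd1cKO-Cx3, against 496 and 427 CPM in Pd1fl/fl. Neuronal markers summed to 63.3 and 39.4 CPM in both libraries labelled Pd1cKO-Cx3, against 32.3 and 38.3 CPM in Pd1fl/fl. The median log2 fold change was 0.64 for oligodendrocyte, -0.01 for astrocyte and 0.69 for neuronal markers. Lymphocyte markers summed to 10.1 and 4.65 CPM in both libraries labelled Pd1cKO-Cx3, against 0 and 0.135 CPM in Pd1fl/fl. The microglial markers themselves summed to 41451 and 39307 CPM in both libraries labelled Pd1cKO-Cx3, against 45859 and 45604 CPM in Pd1fl/fl, with 0 of 8 higher and 3 lower with groups apart. Their median log2 fold change was -0.09. P2ry12, which encodes a purinergic receptor that resting microglia make and is named here after its values were seen, had 11312 and 10691 CPM in both libraries labelled Pd1cKO-Cx3, against 14866 and 15129 CPM in Pd1fl/fl. Its log2 fold change was -0.46 ± 0.05 (SE; edgeR adjusted p = 0.0958; DESeq2 adjusted p = 4.0e-06). DESeq2 also called the markers Lyve1, F13a1, Cbr2, Plac8, Tie1, Rgs5, Notch3 and Cd4, all higher under the Pd1cKO-Cx3 label. Their DESeq2 adjusted p ranged from 5.1e-11 for Plac8 to 0.0485 for Cd4, beside calls for 1.54% of all genes tested. Tie1, Notch3 and Cd4 passed the filter on low counts only through both libraries labelled Pd1cKO-Cx3. These genes could thus only be called higher, and their calls are no support. edgeR called none of the markers. The part of these other cells, and of the mitochondrial share, in the values of the 10 genes was not tested.

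**Figure D5:**
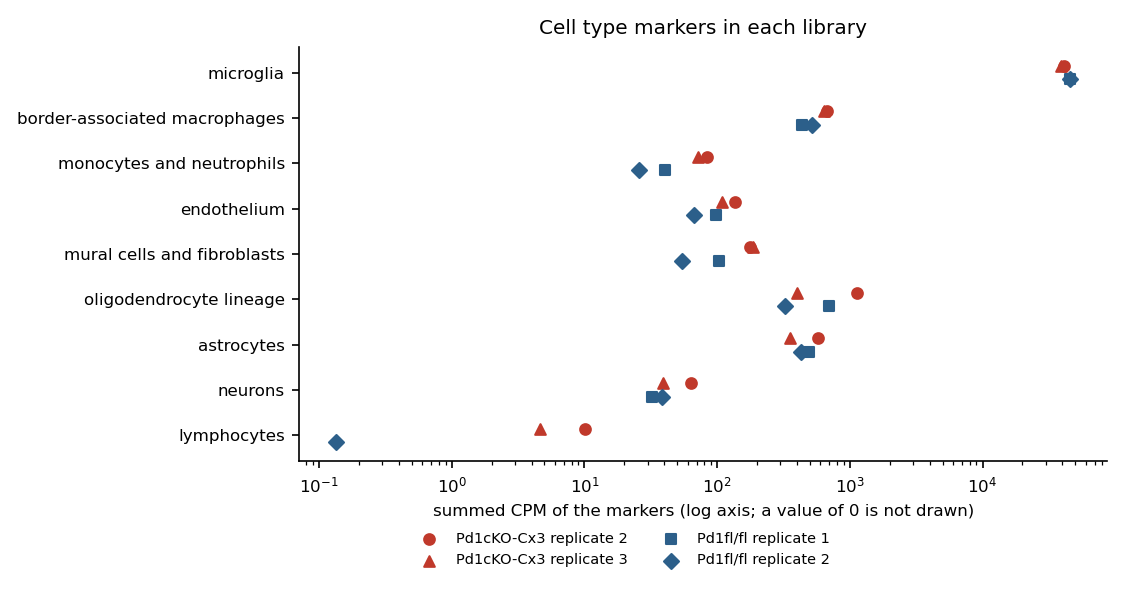
Summed CPM of the marker list of each cell type in each library, on a log axis, with both libraries labelled Pd1cKO-Cx3 (red) drawn above Pd1fl/fl (blue). Sums for border-associated macrophages, endothelium, mural cells, neurons and lymphocytes are higher in both libraries labelled Pd1cKO-Cx3, for neurons by little (39.4 against 38.3 CPM at the nearest). The same holds for the monocyte and neutrophil sum, whose groups overlap once Plac8 is left out. Oligodendrocyte and astrocyte markers overlap between the groups, and the microglial sum is lower in both libraries labelled Pd1cKO-Cx3. The lymphocyte sum of 0 in Pd1fl/fl replicate 1 is not drawn.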

How the data were processed

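Microglial RNA of 2 libraries labelled Pd1cKO-Cx3 and 2 labelled Pd1fl/fl had been sequenced, and groups follow the sample titles and genotype labels. The authors deposited 4 tables, each pairing 1 library of either label, so that each library stands in 2 tables, with 0 counts that differ between them. The deposited counts are whole reads for each Ensembl identifier, per the file headers. The deposited CPM values are counts scaled to the library's total, with 0.5 in place of 0, as the values show. The deposited ratio, log2 fold change and p-value columns compare the 2 libraries of a table, and the sources used here do not give the tool. Tools named in the submitters' processing notes are TopHat2 2.0.12, Bowtie2 2.2.3 and HTSeq 0.6.0, with mm9 as the build. Of 20276 gene identifiers, 92.1% matched their GENCODE M21 position on GRCm38, among them the 10 described here, and coordinates are read as GRCm38.

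Counts were joined by identifier, each library once, and a gene that neither table of a library lists was given 0 there. The 10 genes were listed in all 4 tables. CPM was recomputed from the joined counts. edgeR 4.0.16 in R 4.3.3 was run on raw counts with TMM factors, filterByExpr, quasi-likelihood tests and a Benjamini-Hochberg threshold of 0.05 over 15097 genes, and DESeq2 1.42.0 as an alternative. The edgeR script was tested on simulated data. With 2 against 2 libraries an exact permutation test cannot reach 0.05, so none is given. Groups are called apart when both libraries of one lie above both of the other in CPM. A count of 0 was given a limit of 3 counts. Fold changes are log2, as Pd1cKO-Cx3 over Pd1fl/fl.

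The genes and lists were chosen with earlier results of these data known. All 10 genes and the 2 genes of smallest p in each list of partners were named by rule. So were the 2 most abundant markers of each cell type and the 3 nearest profiles to Spp1 and Igf1. Syk, Igf1r, Igfbp3, Apoe, Itgax, Cst3, Tie1 and Retnlg were chosen after their values were seen. Some markers of the rule are given only within their sums, and markers that DESeq2 called were named after their values were seen.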

Additional observations from a re-analysis of the deposited data

How the results depend on the processing

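The 10 genes kept 0 calls under each of the 10 alternatives, which were other normalizations, filters, DESeq2 and leaving out 1 library. Of 97 single values of these genes, 95 kept their sign and side of the threshold, with adjusted p from 0.0526 to 0.9996. The exceptions were Fabp5, from -0.15 to 0.79 without a library, and Lgals3, from -0.81 to 0.24. Without a library the median log2 fold change of the 10 genes ranged from 0.47 to 0.94, and 7 to 10 had groups apart, more by construction where a group holds 1 library. Over all genes the 6 calls became 32 with no filter, 32 at 5 CPM in 2 libraries and 233 in DESeq2, and 4 to 21 without a library, the highest without Pd1fl/fl replicate 2, and the cause was not tested. A lone library was assumed to vary like the other group. Gpnmb was not tested at 5 CPM in 2 libraries or when replicate 3 of the Pd1cKO-Cx3 label was left out, and Lgals3 not at 5 CPM in 2 libraries. No paired analysis was possible because the groups share only 1 replicate number. Depth limits Gpnmb most, with at most 19 counts in a library.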

Other observations

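Among the 96 tested partners and relatives of the 10 genes, DESeq2 called 8, of which 6 were higher and 2 lower in the libraries labelled Pd1cKO-Cx3, against 1.54% of all genes tested. The higher genes were Igfbp2, Lgals9, Lgals3bp, Ctsc, Ctss and Axl, and the lower ones Cst3 and Tspan4, a tetraspanin gene. Their DESeq2 adjusted p ranged from 7.3e-11 for Axl to 0.0281 for Tspan4, while edgeR called none of them (adjusted p from 0.167 to 0.438). None of the 8 is among the 10 genes, of which Cd9 came nearest in DESeq2 (adjusted p = 0.0526).

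The filament gene Nes, which encodes nestin of progenitor and endothelial cells, had 2.95 and 6.78 CPM in both libraries labelled Pd1cKO-Cx3, against 26.6 and 10.8 CPM in Pd1fl/fl, the opposite side to Vim, Lmna and Gfap (log2 fold change -1.95 ± 0.62, SE; edgeR adjusted p = 0.542). It was chosen after its values were seen.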
